A study of Homo sapiens with 6 samples.

Results

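The genes described here encode 10 proteins of mucosal defence: DMBT1, LCN2, PIGR, SLPI, PI3, LYZ, SAA1, SAA2, MUC1 and SFTPB. They were chosen by name with their counts in control and OC2-OE cells already known, so their values in that comparison are given as a description and without p-values. The number that passed the threshold is given once, and nothing is read from it. They are 10 of the 62696 genes counted, and 7 of them were among the 17307 genes that passed the filter on low counts. PIGR, SAA1 and SAA2 did not pass it.

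RNA-Seq was performed on 6 cultures of DMS53, an established cell line of small cell lung cancer with neuroendocrine features (NE-SCLC), to ask whether OC2 plays a role in the plasticity of these cells. The control group (n = 3) received the empty lentiviral vector pLenti-C-mGFP-P2A-Puro, and the OC2-OE group (n = 3) received a lentiviral ONECUT2 open reading frame tagged with mGFP, which is expressed constitutively. Cells of both groups were grown in RPMI medium with fetal bovine serum and selected with puromycin, so transduction and selection are shared by the groups. The study describes the cultures of a condition as independent RNA-Seq experiments, and all of them come from 1 cell line.

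Epithelia of the airway, gut and glands cover themselves with secreted and membrane-bound proteins that hold microbes away from the cell surface. DMBT1 is a scavenger receptor cysteine-rich glycoprotein that binds bacteria, LCN2 is a lipocalin that withholds iron by binding bacterial siderophores, and LYZ cleaves the bacterial cell wall. PIGR carries dimeric IgA and pentameric IgM across epithelia, SLPI and PI3 (elafin) inhibit neutrophil serine proteases, SAA1 and SAA2 are acute-phase apolipoproteins, MUC1 is a transmembrane mucin, and SFTPB is the surfactant protein B of alveolar type 2 cells.

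Between 16533284 and 19099337 read pairs were counted in a library. Expression is given as CPM, the counts of a library scaled to a common total with the TMM method, which compares a gene between libraries, and as CPM per kilobase of exon (FPKM) where genes are compared with each other. ONECUT2, which encodes OC2, rose from 24.5 ± 0.331 to 3937 ± 70.2 CPM (SD, n = 3 in each group; log2 fold change 7.32, SE 0.0281, edgeR adjusted p = 1.45e-158), and reads from the introduced and the endogenous gene cannot be told apart. The labelled cell type was checked against 7 neuroendocrine markers (SYP, CHGA, CHGB, INSM1, NCAM1, SCG3 and GRP), and all 7 passed the filter in these libraries. At an edgeR adjusted p of 0.001, 5 fell, 1 rose (CHGA, log2 fold change 1.06) and SCG3 was not called. Of all genes tested, 56.5% were called, 27.8% higher and 28.7% lower. The log2 fold changes of the 5 that fell ran from -4.41 (GRP) to -0.14 (CHGB).

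The promoters that bear on the largest differences are shown first, from RefSeq on GRCh38.p14. RefSeq windows matched DMBT1, LCN2, PIGR, MUC1 and SFTPB, that is 5 of the 10 genes, and SLPI, PI3, LYZ, SAA1 and SAA2 had none in the table. DMBT1 and LCN2 are shown because they had at most 3 control counts in all and were the most changed upward, and SFTPB because it was lower. Bases that release 29 of GENCODE places in an exon of the same gene were left out, apart from 6 bases that complete a match in DMBT1, and at most 180 bases of a window are shown. Capitals mark every match to the motifs searched.

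DMBT1, chr10:122560504-122560670, plus strand: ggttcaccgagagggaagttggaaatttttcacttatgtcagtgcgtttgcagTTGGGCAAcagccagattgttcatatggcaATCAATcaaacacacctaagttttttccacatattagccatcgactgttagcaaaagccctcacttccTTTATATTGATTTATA

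LCN2, chr9:128149265-128149440, plus strand: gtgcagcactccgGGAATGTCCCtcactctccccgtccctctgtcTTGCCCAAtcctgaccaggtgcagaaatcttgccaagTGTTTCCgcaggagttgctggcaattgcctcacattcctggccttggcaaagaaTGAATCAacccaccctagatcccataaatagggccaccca

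SFTPB, chr2:85668742-85668921, minus strand: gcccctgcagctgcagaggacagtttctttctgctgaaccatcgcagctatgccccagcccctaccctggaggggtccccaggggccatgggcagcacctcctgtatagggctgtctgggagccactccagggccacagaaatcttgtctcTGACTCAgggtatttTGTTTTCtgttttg

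A total of 8 motif forms were searched on both strands of the 250 bases before the start site: the NF-kB site, the ONECUT core ATTGAT and its second form ATCGAT, C/EBP (TTGCNNAA), AP-1 (TGANTCA), STAT (TTCNNNGAA), FOXA (TGTTTNC) and the TATA box (TATAAA). The DMBT1 window held ATTGAT 2 times, at positions -167 to -162 on the minus strand and -94 to -89 on the plus strand relative to the RefSeq start site. Of all 35116 promoter windows of this length, 5.58% held ATTGAT at least once and 0.393% held it at 2 or more positions. The share at 2 or more positions was computed for this motif alone, and DMBT1 is shown because of its change. Nothing is therefore read from that share. The letters of the TATA box, also found in the DMBT1 window, were present in 10.7% of windows. The RefSeq start site of DMBT1 is 89 bases downstream of the first base of the gene in the counts files, so the last base of the ATTGAT nearer the start is the first base of the gene as counted. This ATTGAT overlaps the letters of a TATA box match on either side of it, both on the minus strand (-99 to -94 and -89 to -84), and the TATA box match on the plus strand stands at -29 to -24, outside the printed stretch. The printed stretch also holds a C/EBP match at -197 to -190, a motif present in 9.05% of windows.

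The LCN2 stretch held an NF-kB match at -175 to -166, a C/EBP match at -143 to -136, a FOXA match at -106 to -100 and an AP-1 match at -52 to -46. These motifs were present in 5.21%, 9.05%, 15.5% and 6.57% of all windows. The RefSeq start site of LCN2 is 382 bases downstream of the first base of the gene in the counts files, so the LCN2 window lies inside the gene as counted. In the SFTPB window shown, the AP-1 letters stood at -29 to -23 and the FOXA letters at -14 to -8. Another SFTPB window, with its start site 542 bases downstream of the first base of the gene in the counts files, held none of the motifs. The MUC1 windows held a TATA box match alone, and the PIGR window held none of the motifs. A match of letters is a description and no measurement of binding was made.

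Among the 7 genes that passed the filter, DMBT1, LCN2, SLPI, PI3 and LYZ were higher in OC2-OE cells and MUC1 and SFTPB were lower. All 7 passed an adjusted p of 0.001 in the fit over all genes, where 56.5% of the genes tested did (27.8% higher and 28.7% lower), and since the genes were chosen on this comparison nothing is read from their count. Over all 10 genes, the CPM ranges of the groups did not overlap for 7 that were higher and 2 that were lower, and they overlapped for SAA1, beside 73.2% of all tested genes and 12.4% of the genes below the filter with at least 1 count, where PIGR, SAA1 and SAA2 belong. The counts of all 10 genes summed to 1336, 1193 and 1187 in control replicates 1, 2 and 3 and to 1502, 1346 and 1382 in the OC2-OE replicates. Without MUC1 and SFTPB, the genes that were lower, the sums were 34, 12 and 18 in control and 909, 779 and 803 in OC2-OE libraries. DMBT1 alone had 656, 566 and 576 of the latter. The rise of this second sum follows from leaving out the lower genes, and nothing is read from it.

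**Figure D1:**
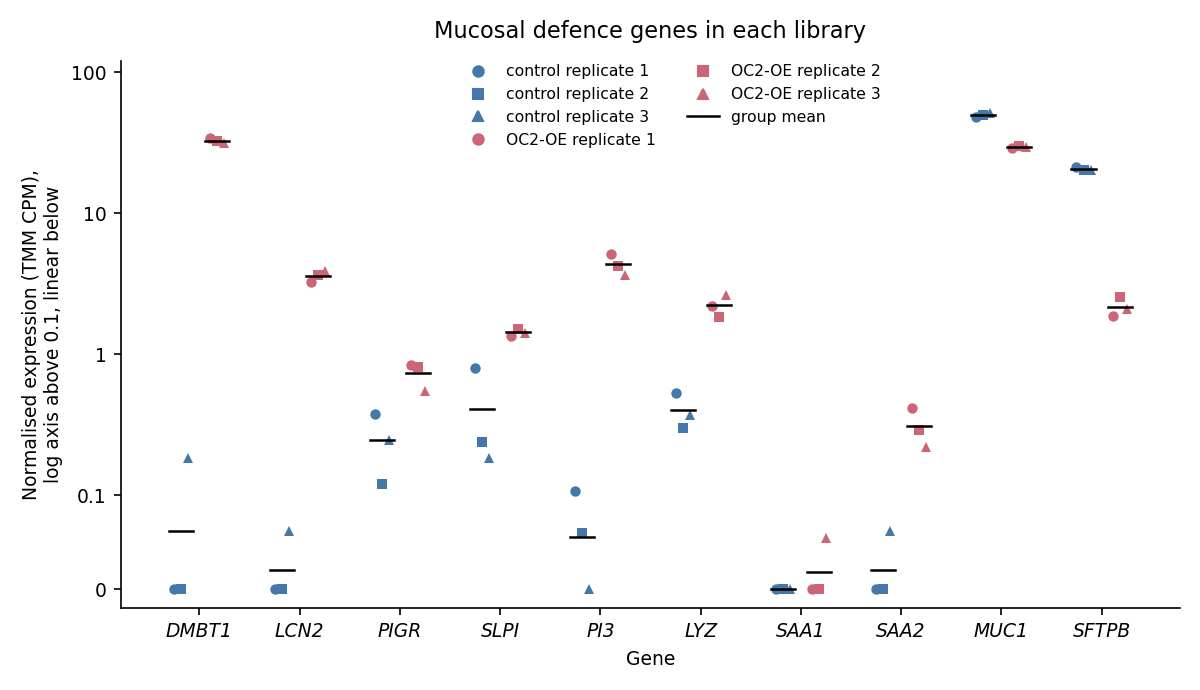
TMM-scaled CPM of each gene in each of the 6 libraries (control in blue, OC2-OE in red, replicates 1 to 3 as circle, square and triangle), with the group mean as a black line; the axis is logarithmic above 0.1 CPM and linear below. DMBT1 moves from 0 or 0.184 CPM in the control libraries to between 31.6 and 34.2 CPM, while MUC1 and SFTPB are the genes whose control points lie above the OC2-OE points.

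Of the proteins that bind or kill microbes, DMBT1 (ENSG00000187908.20) differed most. The gene lies on chromosome 10 from 122560665 to 122643736 on the plus strand. Control replicates had 0, 0 and 3 counts and OC2-OE replicates had 656, 566 and 576, that is 0.0614 ± 0.106 against 32.8 ± 1.32 CPM (SD, n = 3). Every OC2-OE library lay far above every control library, and the 3 control counts were all in control replicate 3. The ratio of the summed counts, corrected for library size, was 566, with a 95% counting interval from 193 to 2748. Without control replicate 1 the ratio was 361. Without control replicate 3 the control group is at 0 counts, and DMBT1 was at least 388-fold higher in OC2-OE cells, computed against 3 counts over the group. That bound holds for the remaining control libraries only and lies above the lower limit of 193 from all libraries.

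LCN2 (ENSG00000148346.12, chromosome 9 from 128149071 to 128153453, plus strand) had 0, 0 and 1 control counts and 62, 63 and 71 OC2-OE counts. Its level was 3.58 ± 0.333 CPM in OC2-OE cells, and the ratio of summed counts was 185 with an interval from 32.8 to 7349.5. The width of that interval comes from a single control read pair, again in control replicate 3. Without that library LCN2 was at least 42.3-fold higher, computed against 3 counts over the group. This bound holds for the remaining control libraries only and lies above the lower limit of 32.8 from all libraries. Without control replicate 1 the ratio was 118. LCN2 is carried into cells by SLC22A17, a receptor for its iron-loaded form, which is described with the partners below.

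LYZ (ENSG00000090382.7, chromosome 12 from 69348381 to 69354234, plus strand) was counted in every library. Control libraries had 10, 5 and 6 counts and OC2-OE libraries 42, 32 and 48. This corresponds to 0.400 ± 0.121 against 2.22 ± 0.394 CPM, a log2 fold change of 2.44 (SE 0.327), and the lowest OC2-OE value was above the highest control value. Of the 50-base stretches of its longest coding transcript, 9.79% also occur in transcripts of other genes, PIGR among them, and read pairs that mapped to several places were not counted.

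SLPI and PI3, the protease inhibitors with a whey acidic protein domain, both lie on chromosome 20, where no other tested gene starts between them. SLPI (ENSG00000124107.5, 45252239 to 45254564, minus strand) had 15, 4 and 3 control counts and 26 counts in each OC2-OE library. The log2 fold change was 1.73 (SE 0.365), the smallest upward difference among the tested genes of the set, and control replicate 1 alone brought the groups close: without it the log2 fold change was 2.71.

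PI3 (ENSG00000124102.5, 45174902 to 45176544, plus strand) had 2, 1 and 0 control counts and 99, 73 and 67 OC2-OE counts. Its CPM was 0.0555 ± 0.0536 in control and 4.34 ± 0.753 in OC2-OE cells, so the inhibitor was close to undetected in control cells. The ratio of summed counts was 75.3, with an interval from 25.4 to 367, and without control replicate 1 it was 144.

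PIGR (ENSG00000162896.6, chromosome 1 from 206928522 to 206946466, minus strand) was low in both groups. It had 7, 2 and 4 control counts and 16, 14 and 10 OC2-OE counts, or 0.246 ± 0.127 and 0.729 ± 0.158 CPM. The groups did not overlap, and the ratio of summed counts was 2.91 (95% counting interval 1.52 to 5.92). PIGR was below the filter, so only its counts are described.

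The acute-phase genes stayed at the limit of detection. SAA2 (ENSG00000134339.9, chromosome 11 from 18239223 to 18248668, minus strand) had 0, 0 and 1 control counts and 8, 5 and 4 OC2-OE counts, a ratio of 16.1 with an interval from 2.52 to 671. Without control replicate 3, which held the control count, SAA2 was at least 3.67-fold higher, computed against 3 counts over the group. That bound holds for the remaining control libraries only and lies above the lower limit of 2.52 from all libraries. Without control replicate 1 the ratio was 10.3. SAA1 (ENSG00000173432.13, chromosome 11 from 18266260 to 18269977, plus strand) had 1 count in all, in OC2-OE replicate 3, and a difference was not detectable at this depth.

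The counts of SAA1 and SAA2 are uncertain, because the genes are near-identical copies. Their 366 coding bases in GENCODE release 29 differ at 11 positions (97.0% identity). The first 120 coding bases are shown with the 1 difference between them in capitals, G43A, counted from the first base of the start codon with the SAA1 base first.

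SAA1: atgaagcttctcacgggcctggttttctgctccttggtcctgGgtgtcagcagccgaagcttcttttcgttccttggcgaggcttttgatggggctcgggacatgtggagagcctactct

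SAA2: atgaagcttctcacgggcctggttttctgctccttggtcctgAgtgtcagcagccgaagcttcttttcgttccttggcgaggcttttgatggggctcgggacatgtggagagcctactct

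Over the longest coding transcript, 54.2% of the 50-base stretches of SAA1 and 22.5% of those of SAA2 also occur in another gene's transcripts. In addition, 14.2% of the exon bases of SAA2 lie in exons of the read-through gene SAA2-SAA4 and of RNA5SP333 on the same strand, and pairs assigned to more than 1 gene were not counted. SAA2-SAA4 and RNA5SP333 had 0 counts in all libraries. DMBT1, LCN2, SLPI, PI3 and MUC1 had no 50-base stretch in common with another gene.

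MUC1 and SFTPB, the 2 genes with the most control counts, were lower in OC2-OE cells. MUC1 (ENSG00000185499.17, chromosome 1 from 155185824 to 155192916, minus strand) had 902, 841 and 841 control counts and 557, 523 and 541 OC2-OE counts. Its CPM was 50.0 ± 1.72 in control and 29.6 ± 0.559 in OC2-OE cells, so the groups were tight and well apart. The log2 fold change was -0.76 (SE 0.0540), a level 1.69-fold lower.

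SFTPB (ENSG00000168878.19, chromosome 2 from 85657314 to 85668741, minus strand) had 400, 340 and 328 control counts and 36, 44 and 38 OC2-OE counts. This is 20.6 ± 0.675 against 2.16 ± 0.337 CPM, with a log2 fold change of -3.25 (SE 0.121), a level 9.55-fold lower. The difference between the groups was many times the spread within either of them.

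Compared per exon length, MUC1 had the highest level of the set in both groups, at 20.8 ± 0.718 FPKM in control and 12.3 ± 0.233 FPKM in OC2-OE cells. In control cells SFTPB followed with 5.01 ± 0.164 FPKM, and both were apart from the rest. SLPI came next with 0.685 ± 0.573 FPKM, and from there down each gene overlapped the next in order: LYZ, PI3, PIGR, LCN2, SAA2 and DMBT1, with SAA1 at 0.

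In OC2-OE cells the order below MUC1 was PI3 (7.89 ± 1.37 FPKM), DMBT1 (3.50 ± 0.140), SLPI (2.39 ± 0.120), LCN2 (2.25 ± 0.208), LYZ (1.29 ± 0.229), SFTPB (0.527 ± 0.0821), PIGR (0.167 ± 0.0361), SAA2 (0.137 ± 0.0447) and SAA1 (0.0172 ± 0.0298). SLPI and LCN2 overlapped in range, as did PIGR and SAA2, and all other neighbours in this order were apart. DMBT1 had 1798 counts in OC2-OE cells and MUC1 1621, but DMBT1 had the lower FPKM, since its annotated exons span 9375 bases against 2401 for MUC1.

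**Figure D2:**
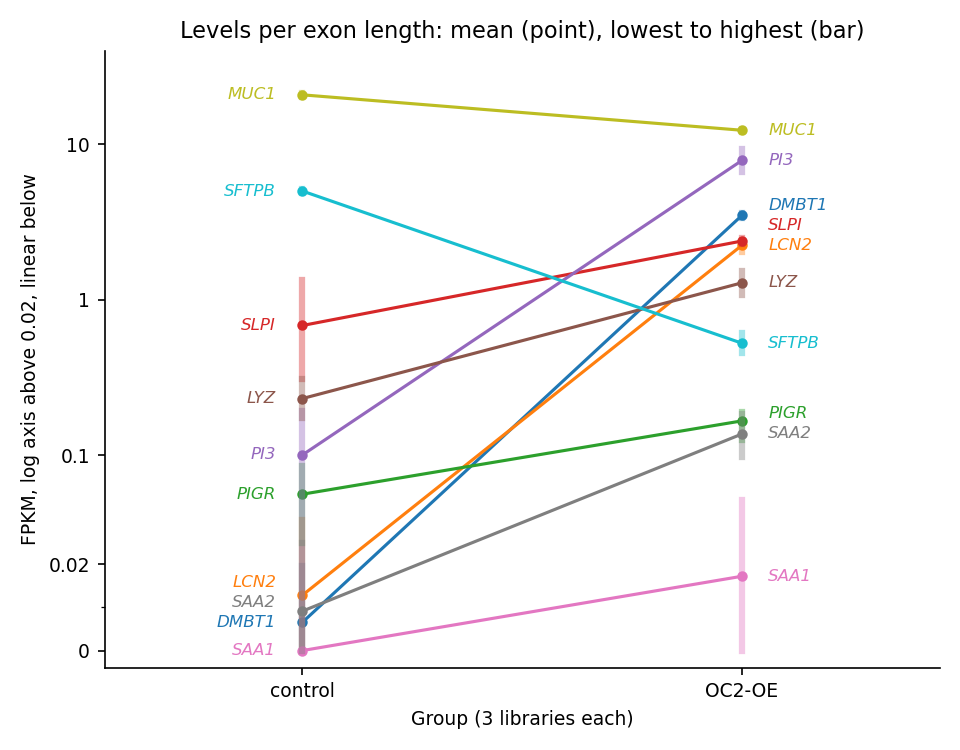
Mean FPKM of each gene in control and OC2-OE cells (points, 3 libraries each) with the lowest to highest library as a pale bar; the axis is logarithmic above 0.02 FPKM and linear below. MUC1 is highest on both sides, PI3, DMBT1, SLPI, LCN2 and LYZ cross SFTPB from below, and SFTPB goes from rank 2 to rank 7.

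To place these levels, for each tested gene the tested gene with the nearest profile was found, as the smallest Euclidean distance in log2 FPKM over the 6 libraries. Since the set was chosen on this comparison, the likeness largely restates the difference between the groups. MUC1 was matched most closely, by CHAF1A, a subunit of a chromatin assembly factor, at a distance of 0.0797 and with 21.1 and 12.04 FPKM in control and OC2-OE cells.

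SFTPB was nearest to LINC01346, a long non-coding RNA, at a distance of 0.493 and with 4.28 and 0.486 FPKM. LYZ was nearest to the integrin subunit ITGB4 (distance 0.652, 0.293 and 1.12 FPKM), SLPI to the gene listed as ENSG00000268204 (0.815, 0.586 and 2.35 FPKM) and PI3 to the adhesion receptor ADGRF4 (0.850, 0.346 and 7.57 FPKM). The matches of the genes that were nearly at 0 in control cells were the loosest. LCN2 was nearest to the transporter SLC17A4 (distance 1.31, 0.0541 and 3.74 FPKM), and DMBT1 to complement factor B, CFB (distance 1.36), which had no control counts and 3.01 FPKM in OC2-OE cells.

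A total of 6 lists of related genes were then examined in the fit over all genes, each by how many of its tested genes were called at an adjusted p of 0.001 with edgeR. Over all genes tested, 56.5% were called and the median log2 fold change was 0.01. Of the 163 genes on the lists, 77 were tested, 29 rose and 28 fell, with a median of 0.04.

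Secreted antimicrobial proteins other than the 10 had 8 of 37 genes tested, and 1 of them rose and 7 fell, with a median log2 fold change of -2.05. GP2, a pancreatic and intestinal glycoprotein that binds bacterial fimbriae, fell from 79.7 ± 1.32 to 7.26 ± 0.613 CPM (log2 fold change -3.46, SE 0.0659, edgeR adjusted p = 1.11e-80). The lung collectins SFTPD (-2.93) and SFTPA2 (-2.40) fell, as did the intelectin ITLN2 (-2.87) and the iron-binding lactoferrin gene LTF (-1.70). SFTPA2 shares 18.9% of its 50-base stretches with SFTPA1, so the counts of these copies are uncertain. The chemokine CCL28, which attracts IgA-secreting plasma cells, was the gene of this list that rose, from 6.66 ± 1.05 to 9.88 ± 0.954 CPM. DMBT1 and LCN2 thus differed in the opposite direction to most tested genes of this list.

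Mucins and mucus proteins had 7 of 21 genes tested, of which 2 rose and 4 fell, with a median of -0.87. CLCA1, a secreted mucus-processing protein of goblet cells, had 75, 77 and 56 control counts and 1, 1 and 2 OC2-OE counts (log2 fold change -5.65, SE 0.390, edgeR adjusted p = 6.19e-27). FCGBP (-1.14), which cross-links in mucus, the transmembrane mucin MUC4 (-1.10) and AGR2 (-0.87), a disulfide isomerase needed for mucin folding, also fell, although MUC4 was not called by DESeq2 (adjusted p = 0.00154). MUC13, another transmembrane mucin, rose from 744.6 ± 31.1 to 1104 ± 6.12 CPM, and TFF3, a goblet cell trefoil peptide, rose from 311 ± 19.6 to 408 ± 11.6 CPM. MUC1 and MUC13, both transmembrane mucins, thus differed in opposite directions in the same libraries.

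The whey acidic protein family, to which SLPI and PI3 belong, had 4 of 16 genes tested, and 2 rose and 1 fell (median 0.02). ANOS1 (log2 fold change 1.39, SE 0.170, edgeR adjusted p = 1.61e-12) and WFDC2 (0.68, SE 0.0528, adjusted p = 4.52e-23), an epithelial secretory protein, rose. WFIKKN1, a multidomain protease inhibitor, fell (-0.99, SE 0.139, adjusted p = 3.55e-10).

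Of the lipocalin and lysozyme families 6 of 25 genes were tested, none rose and 2 fell, with a median of -0.38. The genes that fell were LCN15 (log2 fold change -3.06, SE 0.163, edgeR adjusted p = 6.06e-36) and APOD, a lipocalin that binds small lipids (-2.85, SE 0.272, adjusted p = 8.89e-18). LCN15 had 203, 165 and 171 control counts and 24, 22 and 22 OC2-OE counts, the opposite direction to LCN2. The number that rose was 0 also at an unadjusted p under 0.05 with edgeR, and at an adjusted p of 0.001 with DESeq2 and limma voom.

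**Figure D3:**
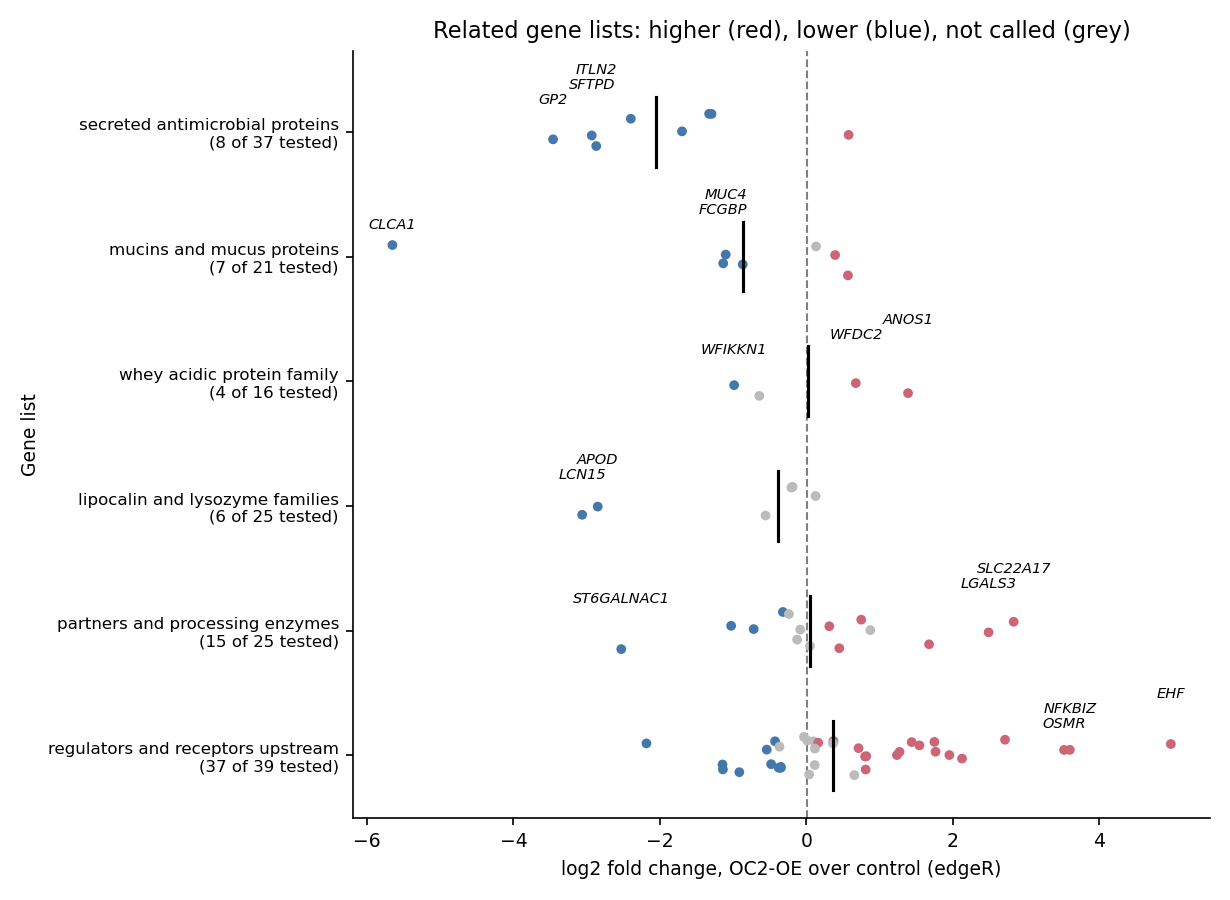
Log2 fold change (OC2-OE over control, edgeR) of each tested gene on the 6 lists, coloured by call at an adjusted p of 0.001, with the list median as a black bar and the median of all tested genes as a dashed line. The secreted antimicrobial proteins lie mostly left of the dashed line, and the regulators and receptors mostly right of it.

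Among partners and processing enzymes, 15 of 25 genes were tested, 6 rose and 4 fell, with a median of 0.05. SLC22A17, the LCN2 receptor named above, rose from 6.18 ± 1.09 to 43.8 ± 0.656 CPM (log2 fold change 2.83, SE 0.0806, edgeR adjusted p = 4.84e-62). LRP2 (megalin), the other LCN2 receptor on the list, fell from 17.1 ± 1.34 to 10.4 ± 0.832 CPM. LGALS3, a galectin that binds MUC1, rose (2.49), and so did ANXA2 (1.68), a cell surface protein that binds SLPI.

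ST6GALNAC1, which adds sialic acid to the core glycans of mucins, fell (-2.53, SE 0.310, edgeR adjusted p = 2.11e-12). ABCA3, the lipid transporter of surfactant-storing lamellar bodies, fell from 179.7 ± 5.44 to 88.2 ± 5.41 CPM beside SFTPB. Immune cell partners of these proteins had few or no counts: the immunoglobulin genes IGHA1, IGHA2 and IGHM, the neutrophil proteases ELANE and CTSG, and the SAA receptor FPR2 had 0 counts in every library. PRTN3, another neutrophil protease, had 5 control counts and 15 OC2-OE counts, and JCHAIN, the joining chain of the immunoglobulins that PIGR carries, had 7 control counts and 1 OC2-OE count.

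Regulators and receptors known to act upstream of these genes had 37 of 39 genes tested, of which 18 rose and 10 fell, with a median of 0.36. EHF, an epithelial ETS factor, rose from 7.05 ± 1.21 to 222.8 ± 2.36 CPM (log2 fold change 4.98, SE 0.0535, edgeR adjusted p = 8.0e-107). NFKBIZ, the IκBζ cofactor on which LCN2 transcription depends in many cells, rose from 7.70 ± 0.608 to 92.9 ± 2.51 CPM (3.60, SE 0.0634, adjusted p = 2.25e-84). The receptors OSMR (3.52) for oncostatin M and TLR3 (2.71) for double-stranded RNA rose as well, and without control replicate 1 the log2 fold change of TLR3 was 3.44.

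Of the NF-kB subunits, NFKB2 (log2 fold change 1.76), RELB (1.75) and REL (1.24) rose, and NFKB1 (0.10) and RELA (0.11) did not pass the threshold. CEBPA (1.95), CEBPB (1.54) and CEBPG (0.81), factors of many acute-phase genes, rose. The IL17 receptor subunits were mixed: IL17RC rose (0.80), IL17RD fell (-1.15), and IL17RA (0.01) and IL17RE (0.66) were not called.

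On the side of the genes that fell, NKX2-1, the lung lineage factor that activates the surfactant protein genes, fell from 143.5 ± 6.92 to 31.5 ± 1.13 CPM (log2 fold change -2.18, SE 0.0432, edgeR adjusted p = 6.45e-79). FOXA2 (-0.92) and FOXA1 (-0.35), forkhead factors of lung epithelium, fell too. SFTPB, SFTPA2, SFTPD, ABCA3, FOXA2 and NKX2-1, which come from several lists and form no fixed list, were lower in the same libraries. LAMP3, also a protein of lamellar bodies, rose from 18.4 ± 2.13 to 31.0 ± 1.44 CPM. Of the partners and processing enzymes, CTSH was not called (0.05), and NAPSA, below the filter, had 5 control counts and 8 OC2-OE counts.

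Markers of other cells that make these proteins were examined in the same libraries. Of 11 myeloid markers 2 were tested, CD14 (log2 fold change 0.71) rose and MPO (-1.09) fell, the summed level of the list ranged from 7.32 to 9.72 CPM in control and from 8.53 to 9.64 CPM in OC2-OE cells, and FCGR3B, ELANE, FCN1, S100A12 and TYROBP were at 0 in all libraries. PTPRC, which all leukocytes express, had 0 control counts and 3 OC2-OE counts, and of the other untested markers CD163 had 11 and 37, ITGAM 5 and 12, and CSF1R 15 and 7. None of 7 lymphoid and plasma cell markers and none of 8 airway secretory cell markers passed the filter, with list sums of at most 0.477 and 0.230 CPM.

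Of 8 alveolar type 2 markers 4 were tested, 1 rose and 3 fell, and the list sum went from between 225 and 234 CPM in control to between 121 and 129 CPM in OC2-OE cells. Most of this sum was ABCA3, and the other markers together went from between 45.1 and 51.1 CPM to between 34.1 and 38.4 CPM. Of the untested genes of this list, SLC34A2 had 1 control count and 24 OC2-OE counts, and SFTPA1 (19 against 1) and PGC (16 against 5) went the opposite way. Of 6 hepatocyte markers, cells that secrete SAA1 and SAA2, 3 were tested and 1, TTR, fell (-2.72), while ALB, not tested, had 4 control counts and 25 OC2-OE counts (ratio 5.90, 95% counting interval 2.04 to 23.3). Of 6 fibroblast markers 3 were tested, COL1A1 rose (0.37) and PDGFRA fell (-2.34). In bulk RNA, fewer cells of a type and less RNA per cell cannot be told apart.

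The genes next to the set on the chromosomes were examined, taking on each side the nearest gene outside the set that passed the filter, so that SLPI and PI3, and likewise SAA1 and SAA2, share their neighbours. Together they were 16 genes, of which 3 rose, 5 fell and 8 were not called, that is 50.0% called beside 56.5% of all genes tested. Their median log2 fold change was -0.10. The 10 genes lie on 7 chromosomes, with the pairs SLPI and PI3, SAA1 and SAA2, and PIGR and MUC1 each on 1 chromosome.

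The nearest tested genes on either side of SLPI and PI3 on chromosome 20 were KCNS1 and SDC4, and both rose. KCNS1, a potassium channel subunit, went from 11 control counts to 171 OC2-OE counts (log2 fold change 3.83, SE 0.340, edgeR adjusted p = 1.27e-19), and SDC4, a heparan sulfate proteoglycan, rose from 23.8 ± 0.383 to 52.8 ± 0.731 CPM (1.15, SE 0.0557, adjusted p = 2.09e-39). KCNS1 passed the filter only through the OC2-OE libraries (0.213 ± 0.0333 CPM in control and 3.11 ± 0.202 CPM in OC2-OE cells). WFDC5 and WFDC12, which did not pass it, lie between KCNS1 and PI3. That both tested neighbours rose thus depends in part on the filter, and nothing is read from it. C1orf116, separated from PIGR by 72.1 kb, rose by 0.72 on the log2 scale (SE 0.0427, adjusted p = 3.99e-32), and FCMR on the other side of PIGR was not called (-0.62, SE 0.379).

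Around DMBT1, HTRA1 fell (log2 fold change -0.77, SE 0.0800, edgeR adjusted p = 7.61e-16) and FAM24B was not called (0.01, SE 0.147). Around LCN2, neither PTGES2-AS1 (0.31, SE 0.398) nor BBLN (-0.07, SE 0.0598) was called, although only 6.81 kb separate BBLN from LCN2. None of these neighbours of DMBT1 and LCN2 was called higher.

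Around LYZ, CPSF6 (-0.18) and YEATS4 (-0.26, adjusted p = 0.00012 with edgeR) fell by small amounts, and YEATS4 was not called by DESeq2 (adjusted p = 0.00219). Around SAA1 and SAA2, SAAL1 fell (-0.72, SE 0.0611, edgeR adjusted p = 6.59e-21) and HPS5 was not called (-0.16). Around MUC1, TRIM46 (-0.03) and THBS3-AS1 (-0.14) were not called. Around SFTPB, ATOH8 fell (-1.96, SE 0.0772, adjusted p = 5.80e-48) and C2orf68 was not called (0.01).

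**Figure D4:**
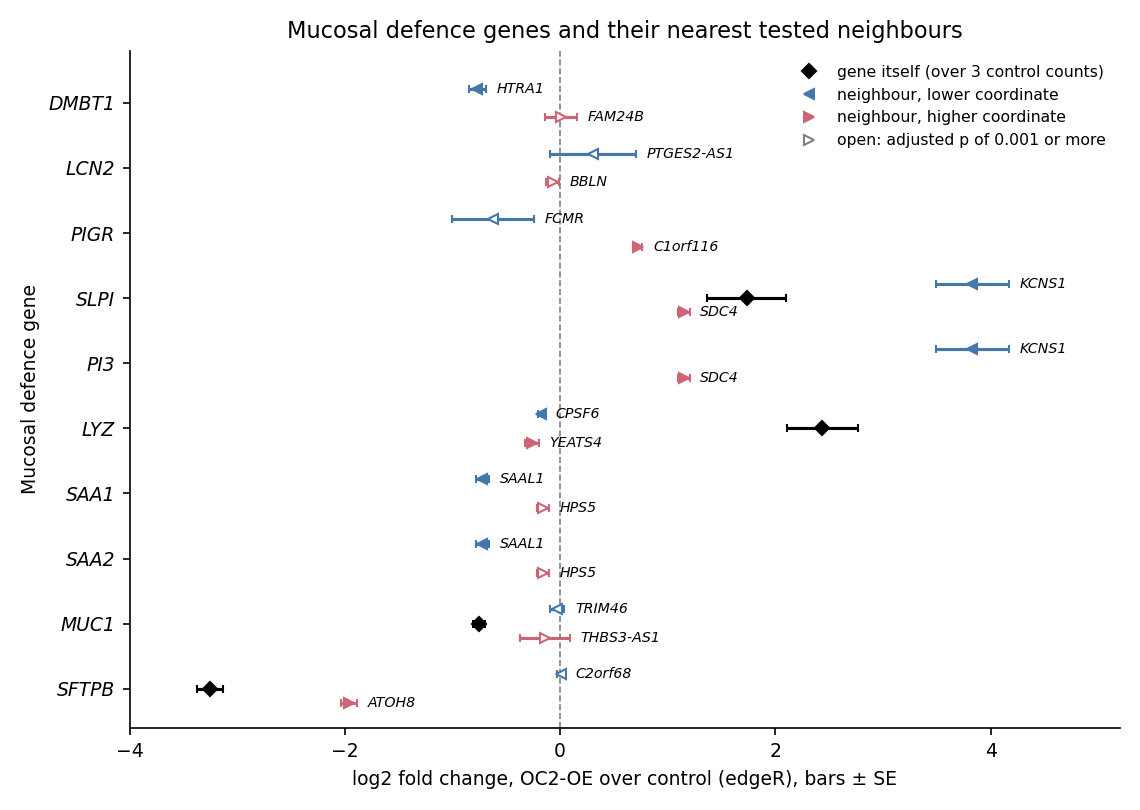
Log2 fold change (OC2-OE over control, edgeR, bars ± SE) of each mucosal defence gene with over 3 control counts that was tested (black diamonds) and of the nearest tested gene outside the set on either side (triangles, open where the adjusted p was 0.001 or more). KCNS1 and SDC4, which flank SLPI and PI3, lie right of 0, and ATOH8 beside SFTPB lies left of it.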

How the data were processed

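RNA was sequenced by the authors from 3 control and 3 OC2-OE cultures with a stranded poly(A) library kit. The deposited values are raw counts of read pairs per gene, made with featureCounts version 1.6.0 on exons of GENCODE release 42 (GRCh38), counting by strand and leaving out pairs that map to several places or to several genes. The submitters' processing notes also name STAR version 2.7.9a and FastQC version 0.11.8. No normalization had been applied to the deposited counts.

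Counts were scaled with TMM in edgeR version 4.0.16 (R version 4.3.3), genes were kept with filterByExpr, and 17307 remained. Differences between the groups were tested by the quasi-likelihood method of edgeR, robust and without a replicate term, at a Benjamini-Hochberg adjusted p of 0.001, the threshold of the study. FPKM is TMM-scaled CPM divided by the exon length in the files. Profiles were compared on log2 FPKM with a prior count of 2. Ratios of summed counts have exact binomial 95% intervals, which cover counting error only. The bounds against 3 counts allow for counting error in the control group alone and take the OC2-OE counts as exact. Gene symbols matched 62625 of 62696 identifiers. The steps were tested on simulated data.

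The genes, the lists, the motifs and the tests were chosen with earlier results of these data known. The genes named are the 10, ONECUT2, all chromosomal neighbours, on each list the 5 with the largest change among those called, and for each tested gene its nearest profile. TFF3, CCL28, LRP2, LAMP3, CTSH, the NF-kB, C/EBP, FOXA and IL17 receptor genes, the untested partners and the cell type markers were named after their values were seen. The alternatives were DESeq2's size factors, library size only, DESeq2 version 1.42.0, limma voom (version 3.58.1), no filter, at least 10 counts in every library, a replicate block, each library left out, an adjusted p of 0.05 and a minimum log2 fold change of 1. Libraries of 1 group differed by more than sampling noise (chi-square per degree of freedom from 1.32 to 2.07), which cannot show that the cultures are independent. Each library was counted as a sample because the study describes independent experiments.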

Additional observations from a re-analysis of the deposited data

How the results depend on the processing

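The directions of MUC1, SFTPB, SLPI and LYZ and of the ratios of DMBT1, LCN2, PIGR, PI3 and SAA2 held under all alternatives that gave a value. With library size alone MUC1 moved from -0.76 to -0.70, the median of all genes from 0.01 to 0.06, and the share of higher genes among those called from 49.2% to 54.7%. The ratios of DMBT1, LCN2, PI3 and SAA2 rest on 1 to 3 control counts and limit what this depth can show.

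Leaving out each library in turn gave log2 fold changes from 7.31 to 7.35 for ONECUT2, 1.40 to 2.71 for SLPI, 2.27 to 2.71 for LYZ, -0.79 to -0.73 for MUC1 and -3.37 to -3.15 for SFTPB. The ratios ran from 2.32 to 4.02 for PIGR and 51.6 to 144 for PI3. Without control replicate 3 no ratio could be formed for DMBT1, LCN2 and SAA2. Against 3 control counts, with the OC2-OE counts taken as exact, they were then at least 388-fold, 42.3-fold and 3.67-fold higher. Leaving out each of the other 5 libraries gave ratios from 361 to 577, 118 to 195 and 10.3 to 18.4. The lowest of these ratios, and the highest values of SLPI, PIGR and PI3, came without control replicate 1.

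Requiring in addition an absolute log2 fold change of 1 left 1435 genes higher and 1564 lower, from 4810 and 4966. On the lists it left 16 higher and 17 lower in all, with 0 higher among antimicrobial proteins, 0 higher among mucins, 1 higher and 0 lower in the whey acidic protein family, 3 higher and 2 lower among partners and 3 lower among regulators. Requiring 10 counts in every library left 1 lipocalin or lysozyme gene lower.

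The replicate numbers of the groups are not said to mark a shared batch, and same-numbered libraries did not deviate together (correlations of 0.000319, 0.0302 and 0.0244). With the replicate number as a block, 9642 genes were called in place of 9776, the log2 fold change of SFTPB was -3.25 and that of MUC1 -0.76.

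Among single genes, MUC4 (adjusted p = 0.00154) and YEATS4 (0.00219) were not called by DESeq2, YEATS4 also not with library size alone (0.00192) nor without control replicate 3 or OC2-OE replicate 3. Of genes near 0 that were not called, 4 changed sign when a library was left out: FAM24B ran from -0.10 to 0.092, TRIM46 from -0.059 to 0.026, THBS3-AS1 from -0.28 to 0.047 and C2orf68 from -0.023 to 0.033. TRIM46 was 0.023 with library size alone. The cause was not tested.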

Other observations

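Of the 86 genes of the 6 lists below the filter, 4 were higher and 6 lower in OC2-OE cells without overlap between the groups. That is 19.2% of the 52 of them with at least 1 count, beside 12.4% of all 17204 genes below the filter with at least 1 count, and nothing particular to the lists is read from it. The higher ones were REG4, a secreted lectin of enteroendocrine and goblet cells (0, 2 and 2 control counts, 9, 10 and 9 OC2-OE counts, ratio 6.61, 95% counting interval 2.31 to 25.9), MUC2, the gel-forming mucin of the gut (12 against 46 counts, ratio 3.62, 1.89 to 7.51), OLFM4, an olfactomedin of intestinal crypts and neutrophils (2 against 22 counts, ratio 10.4, 2.55 to 91.2), and AGR3 (0 against 7 counts). The lower ones were SFTPA1, the near-identical copy of SFTPA2 (19 against 1 counts, ratio 0.0497, 0.0012 to 0.313), RBP4 (24 against 5, ratio 0.197, 0.0586 to 0.526), ITLN1 (28 against 8, ratio 0.270, 0.106 to 0.608), ZG16 (12 against 2, ratio 0.157, 0.0171 to 0.707), WFDC1 (5 against 1, ratio 0.189, 0.00399 to 1.69) and WFDC10A (13 against 8, ratio 0.581, 0.209 to 1.51). The intervals of WFDC1 and WFDC10A include no change. When no filter was applied, MUC2 (log2 fold change 1.83, edgeR adjusted p = 0.000662) rose and SFTPA1 (-3.89, adjusted p = 0.000771) fell, and the other 8 were not called. These genes were named after their values were seen.

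Among the control libraries, replicate 1 had the highest CPM of PIGR, SLPI, PI3 and LYZ (0.374, 0.802, 0.107 and 0.534 CPM), while the control counts of DMBT1, LCN2 and SAA2 were all in replicate 3. The reason was not tested.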
